A study of Mus musculus with 6 samples.

Results

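The Bcl2 family decides whether a cell keeps its mitochondrial outer membrane intact or opens it and dies by apoptosis. The 10 members listed for it here fall into 3 roles: the survival proteins of Bcl2, Bcl2l1 (Bcl-xL) and Mcl1; the BH3-only killers of Bik, Bcl2l11 (Bim), Bbc3 (Puma), Bad and Bid; and the pore-forming effectors of Bax and Bak1. All probe sets whose single gene symbol in the array's annotation was a member were taken, which gave 31 of 45037 non-control probe sets and 9 of the 10 genes. Bax had no such probe set and was not analysed here.

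Survival proteins hold Bax and Bak in check. BH3-only proteins respond to particular stresses, bind into a groove of the survival proteins and release or directly activate the effectors, which then form pores and let cytochrome c out. In the mammary gland Bim and Bcl-xL are known for their part in clearing the lumen of the duct and in the death of milk-producing cells after weaning. Much of the regulation of the family acts on the proteins, which arrays do not measure.

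The study sorted mouse breast cancer cells, described in the labels as breast cancer stem cells, into a group labelled positive for both CD24 and CD29 (CD24+CD29+) and a group labelled negative for both (CD24-CD29-). The RNA of neither sorting gene was absent from the group labelled negative: on the log2 scale Cd24a, which encodes CD24, read 12.98 to 13.02 on CD24+CD29+ arrays and 12.75 to 12.81 on CD24-CD29- arrays, and Itgb1, which encodes CD29, 10.89 to 10.99 and 10.03 to 10.09, where the lower quartile of an array was 5.20 to 5.40. On the deposited scale their main probe sets were higher in CD24+CD29+ cells by 1.16-fold and 1.83-fold (limma adjusted p = 0.0054 for Cd24a), with 1 of 3 and 1 of 6 probe sets past the threshold the other way, and surface protein was not measured by the arrays. The RNA of 3 arrays per group was measured on Affymetrix Mouse430_2 arrays. The cells of both groups were grown in DMEM with fetal bovine serum. The series' design calls the 3 sets biologically independent, the labels name no strain, genotype or line, and no source used here says whether the sets came from separate cultures, sorts or animals, so p-values measure only the spread between these arrays.

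The members' start sites were looked up in RefSeq's promoter table of GRCm38.p6, which held 15 windows for 9 of the 10 members (all but Bik), each from 250 bases before to 50 bases after a start. The windows were searched on both strands for GTAAACA (the FoxO core), TTCNNNGAA (STAT), TGANTCA (AP-1), TGACGTCA (CRE), CACGTG (E-box), TTTCGCGC (E2F), GGGCGG (GC box) and CCAAT. No motif was required to be free of overlap with another. The FoxO core was present in a Bcl2l11 window and in a Bbc3 window, both genes of killers known as FoxO targets, and in 3.65% of all 32851 windows. The E2F letters were present in a Bcl2l1 window and in 0.323% of all windows. GGGCGG, found in 35.7% of all windows, occurred 3 times in the only Bid window. It was not particular to Bid. It occurred 7 times in the Bcl2 window, 5, 4 and 7 times in those of Bbc3 and 4 and 0 times in those of Bad. Those of Bcl2l11 held 3 each, that of Bax 3 and that of Mcl1 1, and those of Bak1 and Bcl2l1 none. The other motifs were present in 8.30% (STAT), 7.81% (AP-1), 1.79% (CRE), 7.15% (E-box) and 37.4% (CCAAT) of all windows. No member window held the STAT, AP-1 or CRE letters. The E-box was in the Bax window and a Bbc3 window, and CCAAT in a Bad window, a Bbc3 window and those of Bcl2l11. A match shows only that the letters are there.

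These 4 windows belong to the survival gene with the largest difference, to the pair of killers that carry the FoxO core and to the killer with the largest rise in CD24+CD29+ cells. Each is written 5′ to 3′ on the gene's strand, with the motif in capitals. The Bcl2l1 window (chr2:152830668-152830967, minus strand) has the E2F letters from position -145 relative to the start, the Bcl2l11 window (chr2:128125788-128126087, plus strand) and the Bbc3 window (chr7:16310011-16310310, plus strand) have the FoxO core from -227 and -167, and the Bid window (chr6:120916775-120917074, minus strand) has GGGCGG.
Bcl2l1: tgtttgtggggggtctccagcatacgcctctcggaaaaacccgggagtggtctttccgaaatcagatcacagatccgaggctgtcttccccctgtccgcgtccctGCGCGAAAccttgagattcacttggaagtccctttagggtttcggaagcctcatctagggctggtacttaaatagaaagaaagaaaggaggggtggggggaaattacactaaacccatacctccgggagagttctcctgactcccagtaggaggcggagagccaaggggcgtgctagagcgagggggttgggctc
Bcl2l11: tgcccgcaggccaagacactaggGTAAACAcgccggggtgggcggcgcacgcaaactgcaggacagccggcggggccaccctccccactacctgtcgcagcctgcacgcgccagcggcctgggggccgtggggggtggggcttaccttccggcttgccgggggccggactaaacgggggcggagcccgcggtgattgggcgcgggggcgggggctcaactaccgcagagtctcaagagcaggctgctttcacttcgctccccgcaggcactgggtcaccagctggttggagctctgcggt
Bbc3: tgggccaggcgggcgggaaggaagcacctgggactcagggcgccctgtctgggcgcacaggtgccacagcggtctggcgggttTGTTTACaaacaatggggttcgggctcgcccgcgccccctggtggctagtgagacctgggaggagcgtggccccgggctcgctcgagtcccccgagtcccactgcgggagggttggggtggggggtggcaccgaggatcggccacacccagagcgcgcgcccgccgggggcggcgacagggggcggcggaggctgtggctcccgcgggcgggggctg
Bid: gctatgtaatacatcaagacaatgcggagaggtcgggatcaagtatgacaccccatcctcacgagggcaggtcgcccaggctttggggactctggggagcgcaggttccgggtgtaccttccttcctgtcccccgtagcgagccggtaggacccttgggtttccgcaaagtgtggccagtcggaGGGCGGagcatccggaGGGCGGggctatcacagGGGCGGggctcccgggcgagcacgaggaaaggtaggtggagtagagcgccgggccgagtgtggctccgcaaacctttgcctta

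The deposited values were on a log2 scale, so a difference of 1 is a 2-fold difference, and all differences are CD24+CD29+ minus CD24-CD29-. The array means were the same, the standard deviation over probe sets was 2.09 to 2.14 on CD24+CD29+ arrays and 2.00 to 2.03 on CD24-CD29- arrays, and the lower quartile of an array lay at 5.20 to 5.40. The epithelial gene Epcam (14.11 and 14.13) was bright in both groups. Of the markers measured, 10 of 12 of basal mammary cells, 11 of 11 of fibroblasts and 14 of 14 of proliferation were higher in CD24+CD29+ cells, and 9 of 13 of luminal cells were lower on the deposited scale, a direction that scaling to the added poly-A RNA, described with the counts below, turns where the difference is smaller than 0.97. The summed level of the proliferation markers on the linear scale was 21187 to 21742 against 10972 to 11128, that of the fibroblast markers 14549 to 15243 against 6784 to 6852, that of the basal markers 37049 to 38503 against 22757 to 23323, and that of the luminal markers 60534 to 62389 against 77806 to 78599. Of 13 leukocyte markers, 1 was higher and 8 lower on the deposited scale, and poly-A scaling turns those 8, with a summed level of 705.3 to 740.7 against 910.0 to 931.2. Ptprc, Cd3g, Itgam and Ms4a1 had means below the lower quartile, and the brightest, Csf1r, read 6.67 to 6.92 against 7.59 to 7.70. Of 9 endothelial markers, 3 were higher and 1 lower, with a summed level of 696.4 to 702.5 against 616.0 to 653.5 and with Pecam1, Cdh5, Tek, Tie1 and Vwf below the lower quartile. The part of these shifts in the results below was not tested, and in sorted bulk samples fewer cells of a type and less RNA per cell cannot be told apart.

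The main comparison asked which survival and killer genes differed between the sorted groups. Most were lower in CD24+CD29+ cells on the deposited scale, on both sides of the balance, and poly-A scaling left only Bik and Bcl2l1 lower. The BH3-only gene Bik was 4.09-fold lower and the survival gene Bcl2l1 2.16-fold lower. The BH3-only gene Bcl2l11 was 1.61-fold lower, Bbc3 1.36-fold, Bad 1.35-fold and the survival gene Mcl1 1.18-fold. The BH3-only gene Bid was 1.77-fold higher and the effector gene Bak1 1.46-fold higher, and Bcl2 did not pass. On the deposited scale Bcl2l11, Bad and Bak1 each had another probe set past the threshold the other way. For Bad and Bak1 the mean of the probe sets did not pass.

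A gene was read by its main probe set, the one with the highest mean that does not end in _x_at, a suffix for probes that can cross-hybridise. By limma with p-values adjusted over all probe sets and a threshold of 0.05, 2 of the 9 genes were higher and 6 lower. Over all 18193 genes 33.4% were higher and 35.5% lower. The median difference was -0.43 for the 9 genes and -0.04 for all genes. The groups did not overlap for 8 of the 9 genes, against 73.6% of all genes. A fall of at least 2-fold was met by 2 members and by 1.66% of all genes, and a rise of that size by none of the members and 3.01% of all genes. Of the 31 probe sets, 4 were higher, 20 lower and 7 did not pass, against 29.2% higher and 34.8% lower over all probe sets, and 3 were lower by at least 2-fold, against 1.15%. The groups did not overlap for 26 of the 31, against 68.2% of all probe sets.

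**Figure D1:**
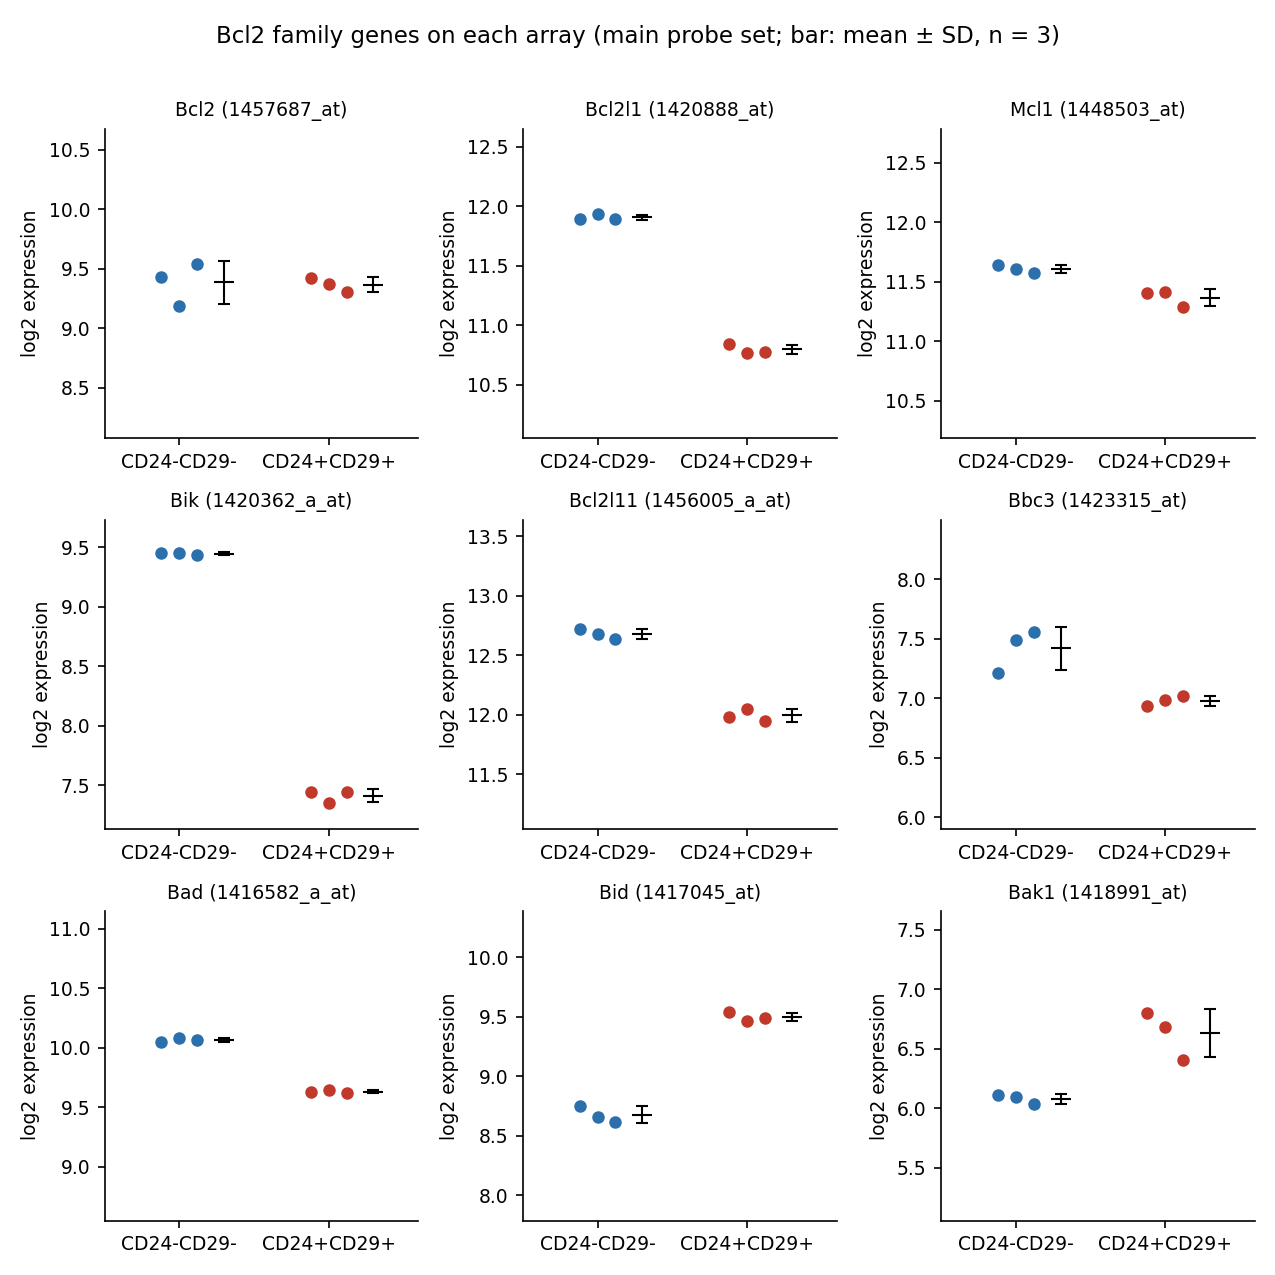
Log2 expression of the main probe set of 9 Bcl2 family genes (y axis, each panel spans the same range) on each of the 3 arrays of CD24-CD29- (blue) and CD24+CD29+ (red) cells, with the mean and SD of the 3 arrays as a bar beside them. Bik is separated most widely, at 9.43 to 9.45 against 7.35 to 7.45, and only Bcl2 overlaps between the groups.

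No source used here says how the poly-A control RNAs were added (per RNA mass or otherwise), so which scale is right was not tested. These added controls bear on every direction given here. Their 27 probe sets were lower on CD24+CD29+ arrays by a mean of 0.97 (log2 difference -0.97), and rescaling the arrays on these controls shifted the all-gene median by 0.97, from -0.04 to 0.94, and the share of higher genes among those past the threshold from 48.5% to 98.8%. On that scale 7 member genes were higher and 2, Bik and Bcl2l1, lower. Relative to the median of all genes, the members' median stood at -0.40 on both scales, since a constant is added to all genes alike. Quantile normalization and cyclic loess gave -0.53 relative to that median.

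**Figure D2:**
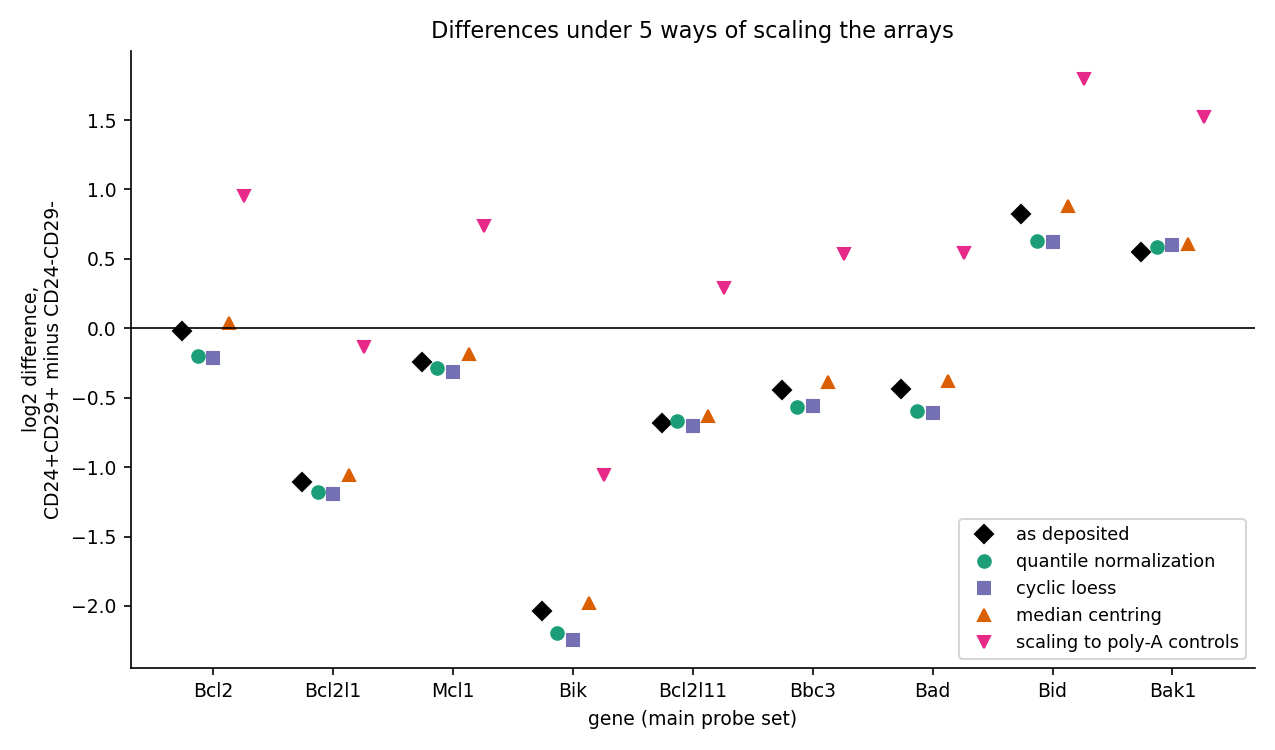
Log2 difference, CD24+CD29+ minus CD24-CD29-, of the main probe set (y axis) of each gene (x axis) as deposited and after 4 other scalings of the arrays (marker shapes). Bik and Bcl2l1 lie below 0 and Bid and Bak1 above 0 in all 5. Poly-A scaling lifts Mcl1, Bcl2l11, Bbc3, Bad and Bcl2 above 0. Bcl2, just below 0 as deposited, is also just above 0 under median centring.

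Among the survival genes, Bcl2l1 encodes Bcl-xL, which keeps Bax out of the mitochondrial membrane. Its main probe set (1420888_at) read 10.84, 10.77 and 10.78 on the CD24+CD29+ arrays and 11.90, 11.93 and 11.89 on the CD24-CD29- arrays. Every CD24+CD29+ array was lower, by about the same amount, and the groups did not overlap. The difference was -1.11 (SE 0.05, limma adjusted p = 6.5e-07), the 233rd lowest of 18193 genes, and -0.14 after poly-A scaling, still past the threshold (limma adjusted p = 0.021). The other 3 probe sets of Bcl2l1 were dim. Of these, 1420887_a_at was lower (-0.49), as was 1426050_at (-0.24), whose call was lost after quantile normalization (-0.10), cyclic loess (-0.10) and median centring (-0.19). That call also missed the threshold without any 1 of CD24+CD29+ replicates 1 and 3 and CD24-CD29- replicates 1 and 3 (-0.23 to -0.19), and 1426191_a_at, at -0.16, did not pass.

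Mcl1 encodes a short-lived survival protein that binds Bim and Bak. Its main probe set (1448503_at) read 11.40, 11.41 and 11.28 in CD24+CD29+ cells against 11.64, 11.60 and 11.57 in CD24-CD29- cells. The groups did not overlap, with a small gap. The difference was -0.24 (SE 0.06, limma adjusted p = 0.0052), or 0.73 after poly-A scaling. All 6 probe sets of Mcl1 were lower on the deposited scale, with differences of -0.15 to -0.75 in the other 5, and poly-A scaling turned all of them. The probe set with the largest of these differences, 1456381_x_at, read 10.65 to 10.77 against 11.44 to 11.45 (limma adjusted p = 6.8e-06), and the brightest, 1437527_x_at, read 11.91 to 11.97 against 12.33 to 12.35. The call of 1416880_at, at -0.15, was lost under median centring (-0.10) and without any 1 array (-0.16 to -0.12) other than CD24-CD29- replicate 3.

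Bcl2, the founding survival gene, did not pass on its main probe set (1457687_at). The values were 9.43, 9.37 and 9.31 against 9.43, 9.19 and 9.54, and the groups overlapped fully, with the wider spread among CD24-CD29- arrays. The difference was -0.02 (95% interval -0.22 to 0.18, limma adjusted p = 0.86), and its sign turned under median centring, after poly-A scaling and without CD24+CD29+ replicate 3 or CD24-CD29- replicate 1 or 3. Of the 4 other probe sets, 1440770_at was lower, at 8.25, 8.08 and 8.10 against 8.56, 8.43 and 8.44 (-0.33, SE 0.07, limma adjusted p = 0.0024). Another, 1422938_at, was lower (-0.21), and both turned positive after poly-A scaling. The values were -0.20 for 1443837_x_at and 0.15 for 1437122_at, neither past the threshold, and the former passed after quantile normalization (-0.33) and cyclic loess (-0.31) and without CD24+CD29+ replicate 1 (-0.25) or CD24-CD29- replicate 3 (-0.24), the latter without CD24-CD29- replicate 2 (0.22). The mean of the 5 probe sets gave -0.12, which did not pass either (limma adjusted p = 0.067).

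Over the 15 probe sets of the survival genes, 11 were lower, none higher and 4 missed the threshold (median -0.24). Over all probe sets 34.8% were lower and 29.2% higher. The 15 are repeated readings of 3 genes, and 6 of the lower ones belong to Mcl1. After poly-A scaling the only one of the 15 that stayed lower was the main probe set of Bcl2l1.

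Among the killers, Bik had the largest difference of the family. Bik encodes a BH3-only protein of the endoplasmic reticulum membrane that was named for its binding to Bcl-2. Its main probe set (1420362_a_at) read 7.45, 7.35 and 7.44 in CD24+CD29+ cells and 9.45, 9.45 and 9.43 in CD24-CD29- cells. The CD24-CD29- arrays were nearly identical and far above the others. The difference was -2.03 (SE 0.05, limma adjusted p = 6.7e-08), the 36th lowest of all genes, and -1.06 after poly-A scaling. Both other probe sets of Bik were lower, 1449836_x_at at 7.18, 7.22 and 7.39 against 8.37, 8.51 and 8.65 (-1.25), and 1420363_at at 5.75 to 5.96 against 6.25 to 6.64 (-0.58, but 0.39 after poly-A scaling).

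Bcl2l11 encodes Bim, a killer that binds every survival protein of the family. Its main probe set (1456005_a_at) read 11.98, 12.05 and 11.95 against 12.72, 12.68 and 12.64, with no overlap. The difference was -0.68 (SE 0.05, limma adjusted p = 1e-05), or 0.29 after poly-A scaling. The probe set 1435448_at was lower (-0.48), as was 1456006_at (-0.83), at 7.35, 7.25 and 7.22 against 8.13, 8.11 and 8.06. The remaining pair went the other way. The probe set 1435449_at was higher, at 8.00, 7.79 and 7.87 against 7.73, 7.75 and 7.60 (0.19, SE 0.07, limma adjusted p = 0.039), a call lost after quantile normalization and cyclic loess (0.0071 and 0.0081) and without any 1 of CD24+CD29+ replicates 1 and 3 and CD24-CD29- replicates 1 and 3 (0.13 to 0.21). The probe set 1426334_a_at, at 0.15, did not pass on the deposited scale and passed after quantile normalization (0.29), cyclic loess (0.29) and median centring (0.21) and without CD24+CD29+ replicate 2 (0.20).

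Bbc3 encodes Puma, a killer induced by p53 and by growth factor loss, and had a single probe set (1423315_at). The values were 6.93, 6.98 and 7.01 against 7.21, 7.49 and 7.55. The groups did not overlap, and 1 CD24-CD29- array lay closer to the CD24+CD29+ arrays than to the others of its group. The difference was -0.44 (SE 0.09, limma adjusted p = 0.0021), or 0.53 after poly-A scaling. The Bcl2l11 and Bbc3 windows printed above both carry the FoxO core, and the FoxO genes in the list of regulators are given below.

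Bad encodes a BH3-only protein that Akt and other kinases inactivate by phosphorylation. Its main probe set (1416582_a_at) read 9.63, 9.64 and 9.62 against 10.05, 10.08 and 10.06, tight in both groups. The difference was -0.43 (SE 0.05, limma adjusted p = 6.9e-05), or 0.54 after poly-A scaling. Its other probe set, 1416583_at, went the opposite way, at 6.97, 6.79 and 7.15 against 6.52, 6.43 and 6.39 (0.52, SE 0.09, limma adjusted p = 0.00095). The mean of both gave 0.04, which did not pass (limma adjusted p = 0.47), so Bad had no single direction on the deposited scale. After poly-A scaling both probe sets were higher, 1416583_at at 1.49.

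Bid encodes a killer that caspase-8 cuts and that links death receptors to mitochondria. On its main probe set (1417045_at) it was the member with the largest rise, at 9.53, 9.47 and 9.49 against 8.75, 8.65 and 8.61. The groups were well apart. The difference was 0.82 (SE 0.06, limma adjusted p = 5.1e-06), and 1.80 after poly-A scaling. The other 2 probe sets of Bid were dim and did not pass, at 0.09 (1448560_at, which passed at 0.23 after quantile normalization and cyclic loess) and -0.18 (1447873_x_at, which passed at -0.26 without CD24-CD29- replicate 3), and the mean of the 3 gave 0.24 (limma adjusted p = 0.0033). Bak1 encodes the effector that sits in the mitochondrial membrane. Its main probe set (1418991_at) read 6.80, 6.68 and 6.41 against 6.11, 6.09 and 6.03, with a wide spread among the CD24+CD29+ arrays and no overlap. The difference was 0.55 (SE 0.09, limma adjusted p = 0.00096), and 1.52 after poly-A scaling. The other probe set, 1425716_s_at, was dim and lower, at 4.85 to 5.06 against 5.20 to 5.25 (-0.28, limma adjusted p = 0.0051), a call lost after quantile normalization and cyclic loess (-0.14 in both). The mean of both gave 0.14, which did not pass (limma adjusted p = 0.063).

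Of the 8 member genes with more than 1 probe set, 3 (Bcl2l11, Bad and Bak1) had probe sets past the threshold in both directions, against 21.7% of all 9010 such genes. This set depended on the scaling. After quantile normalization and after cyclic loess it was 2 genes, Bcl2l11 and Bad, and after poly-A scaling 2 others, Bik and Bcl2l1. Reading a gene by the mean of its probe sets moved the differences of Bcl2l1 to -0.50, Bik to -1.29, Bcl2l11 to -0.33 and Mcl1 to -0.37, all past the threshold. A ratio within an array is free of a constant shift of that array, as in median centring and poly-A scaling. It is not free of quantile normalization or cyclic loess. On the deposited values, the log2 ratio of the main to the other probe set of Bad was 2.47 to 2.86 in CD24+CD29+ cells and 3.53 to 3.67 in CD24-CD29- cells. The groups did not overlap (2-sided exact permutation p = 0.1, the minimum for groups of 3, which cannot pass the threshold).

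**Figure D3:**
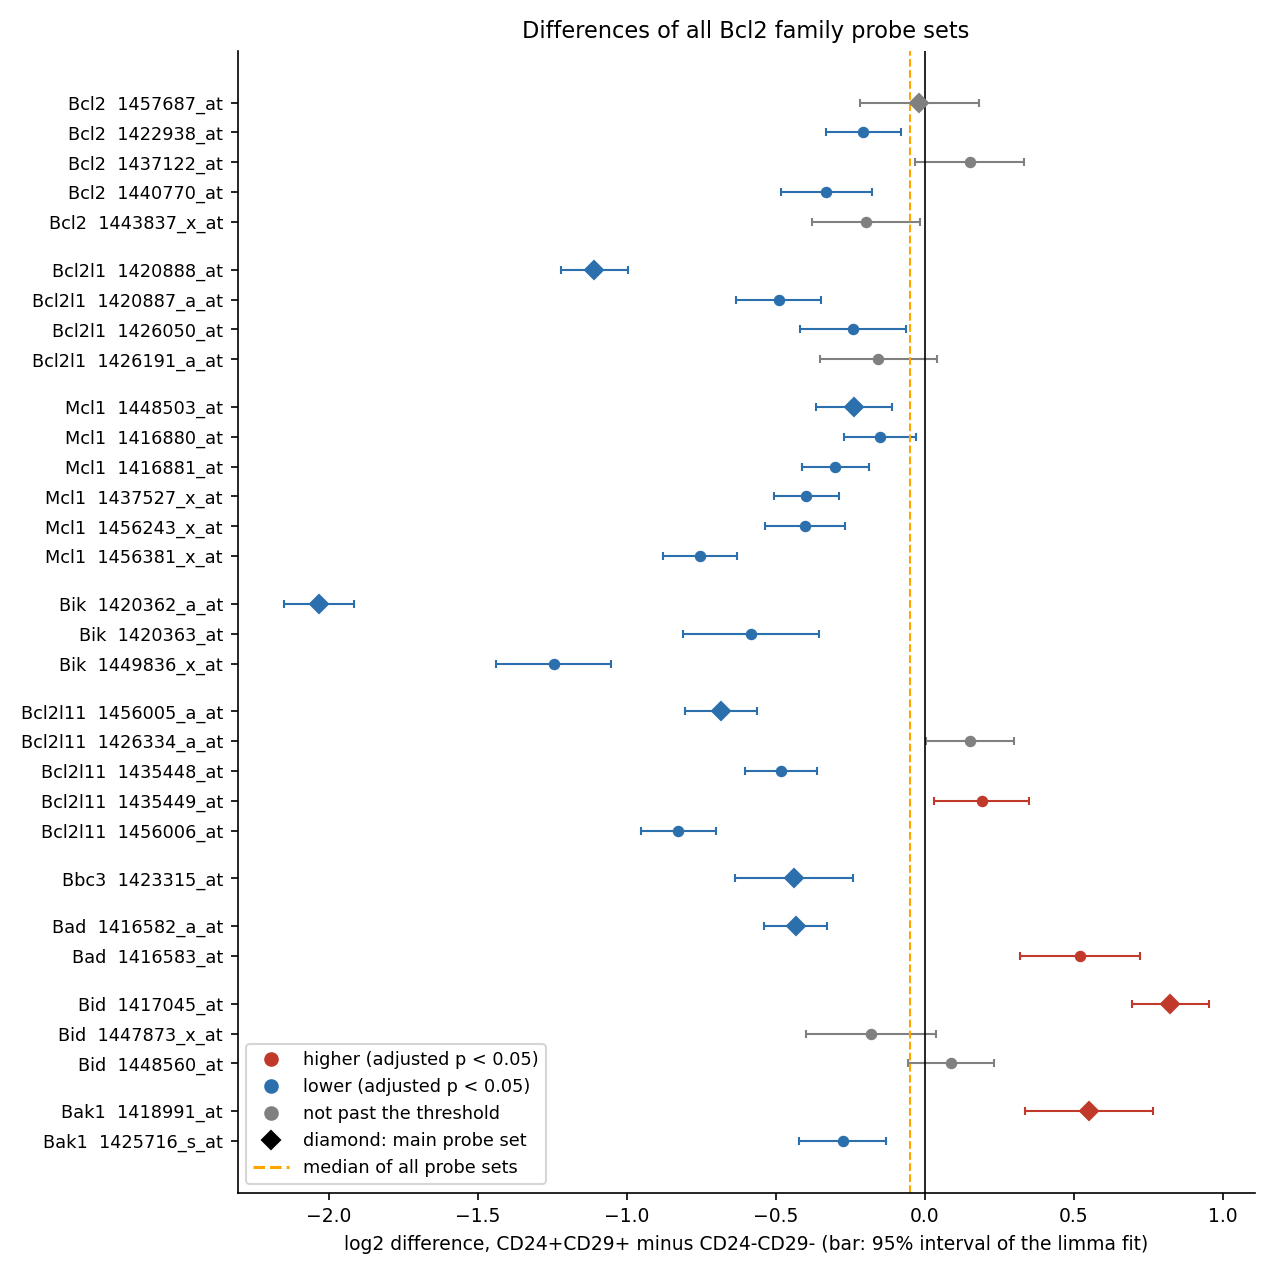
Log2 difference, CD24+CD29+ minus CD24-CD29-, of all 31 probe sets (x axis) by gene and probe set (y axis), with the 95% interval of the limma fit; diamonds mark main probe sets, colours the call, and the dashed line the median of all probe sets, -0.05. On this deposited scale the probe sets of Bcl2l1, Mcl1 and Bik all lie below 0 (poly-A scaling leaves only 1 of Bcl2l1 and 2 of Bik there). The probe sets of Bcl2, Bcl2l11, Bad, Bid and Bak1 lie on both sides of 0 on the deposited scale.

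The genes whose profile over the 6 arrays lay closest to that of Bik, after centring each gene on its own mean, were Lcp1, Dcaf12l1 and Krtap17-1, with root mean square differences of 0.04, 0.05 and 0.05 on the log2 scale. Lcp1 encodes L-plastin, an actin-bundling protein, and Krtap17-1 a keratin-associated protein. Those closest to Bid were Stx2 (0.01), L3hypdh (0.01) and Pdia5 (0.02), which encode a syntaxin, a dehydratase and a protein disulfide isomerase. With arrays in 2 separate groups, this measure follows mainly the size of the group difference.

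The other genes of the pathway were described from 4 lists, of whose 118 genes 102 were measured. The counts of each list stand beside 33.4% higher and 35.5% lower over all genes. For the other Bcl2 family genes the shares were near these, at 29.4% and 35.3%. Of 17 other Bcl2 family genes and their binding partners, 5 were higher and 6 lower, and 6 missed the threshold (median -0.11, or 0.87 after poly-A scaling). Bcl2l15, a little-studied family member, was lowest, at 5.90, 5.58 and 5.54 against 7.49, 7.62 and 7.65 (-1.91, SE 0.10, limma adjusted p = 1.2e-06), and it was 3.76-fold lower. Pmaip1, which encodes Noxa, the BH3-only partner of Mcl1, was 1.73-fold lower (-0.79, SE 0.06), a direction that poly-A scaling turns. Bok, an effector relative of Bax and Bak, was 1.55-fold higher (0.63, SE 0.06).

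Of 25 genes that carry out or restrain apoptosis after the mitochondrial step, 9 were higher, 7 lower and 9 did not pass, and the median was 0.08, or -0.03 after quantile normalization and -0.02 after cyclic loess. The ubiquitin ligase and apoptosis inhibitor gene Birc3 was 2.39-fold higher (10.50, 10.38 and 10.45 against 9.14, 9.24 and 9.17; 1.26, SE 0.06, limma adjusted p = 6.5e-07). The executioner caspase gene Casp6 was 1.92-fold higher and Birc5, which encodes the mitotic protein survivin, 1.72-fold higher, while the proliferation markers were higher on the same arrays (14 of 14).

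Of 24 genes of the death receptor route, 11 were higher, 5 lower and 8 missed the threshold (median 0.07). Quantile normalization gave 8 higher and 6 lower, and cyclic loess 9 and 7. The caspase gene Casp12 was 2.16-fold higher and Ripk3, a kinase of necroptosis, 2.15-fold higher, while the death receptor gene Tnfrsf21 (DR6) was 2.30-fold lower, at 9.24, 9.15 and 9.16 against 10.41, 10.41 and 10.35. Of 36 genes that regulate the family directly, 16 were higher, 13 lower and 7 did not pass (median 0.01). For these, quantile normalization gave 14 higher and 14 lower, and cyclic loess 14 and 16. Akt1, the kinase that phosphorylates Bad, was higher by 2.82-fold, with 1 of its 4 probe sets past the threshold in the opposite direction. Trp73, a relative of p53, was 1.91-fold higher. The kinase gene Pim1, which also acts on Bad, was 2.67-fold lower (9.74, 9.64 and 9.63 against 11.11, 11.08 and 11.06; -1.42, SE 0.05, limma adjusted p = 2.8e-07), and stayed lower after poly-A scaling. The FoxO, E2F and STAT genes listed, and Myc, which binds the E-box, fall outside the naming rule. They were chosen after their values were seen, because their motifs were searched for. Of these, Foxo3 was at -0.76 (SE 0.06, limma adjusted p = 1.5e-05) and Foxo4 at -0.84 (SE 0.06, limma adjusted p = 6.2e-06), both of which poly-A scaling turns. Foxo1, at -0.12, did not pass (limma adjusted p = 0.079), with 1 of its 4 probe sets past the threshold the other way. E2f1 was at -0.37 (limma adjusted p = 0.00094), Stat5a at -0.43 and Stat5b at -0.47, which poly-A scaling also turns. Stat3, at 0.06, did not pass. Myc was higher, at 0.37 (SE 0.07, limma adjusted p = 0.0013). E2f1 and Stat3 each had 1 probe set past the threshold the other way. Whether these factors act on the members here was not tested.

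**Figure D4:**
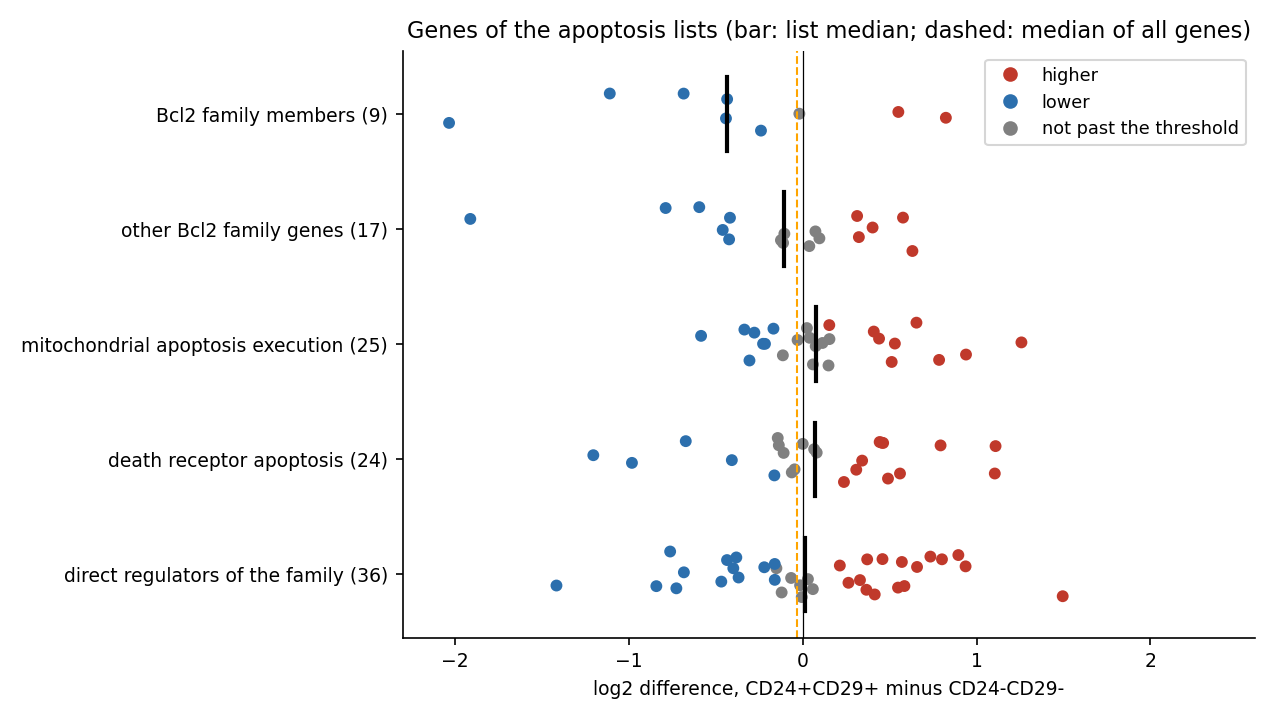
Log2 difference, CD24+CD29+ minus CD24-CD29-, of each gene of the member family and of 4 related lists (rows, number measured in brackets); red, higher; blue, lower; grey, not past the threshold; black bars, list medians; dashed line, median of all genes. The median of the 9 members lies at -0.43 and those of the other lists between -0.11 and 0.08 on the deposited scale, and poly-A scaling puts all of them above 0.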

How the data were processed

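The values came from 6 Affymetrix Mouse430_2 arrays, 3 per sorted group. The deposited values are log2 expression per probe set, made with RMA and Partek per the submitters' processing notes, with no versions or settings stated there, and they come without detection calls. RMA compresses differences of dim probe sets. Genes were named through the platform's annotation (34945 probe sets with 1 symbol, 932 with several, 9160 unnamed, 64 controls left out).

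All 45037 non-control probe sets were compared with limma 3.58.1 (lmFit and eBayes) in R 4.3.3, after a check on simulated data, and p-values were adjusted by Benjamini-Hochberg over all of them, with a threshold of 0.05. The median SE was 0.07 over probe sets, and the number of arrays limits the precision. Outside the members, the genes named are those past the threshold by at least 2-fold, or the 3 largest of a list with fewer. Marker lists are given as counts, with markers named where highest or lowest in level. Cd24a, Itgb1, Myc and the FoxO, E2F and STAT genes were named after their values were seen. The members and lists were chosen with earlier results of these data known. Alternatives were other scalings, filters of dim probe sets, variance models, gene summaries, a replicate block and leaving out arrays. Same-numbered arrays of the 2 groups had deviations correlating at 0.20, -0.04 and 0.05, so the numbers were not taken to pair them.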

Additional observations from a re-analysis of the deposited data

How the results depend on the processing

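The calls of the 8 member genes past the threshold kept their direction and their side of it under quantile normalization, cyclic loess, median centring, both dim filters (without the dimmest 20% or 40%), both other variance models and the fit of main probe sets alone, and without any 1 array. Leaving out 1 array gave 2 higher and 6 lower member genes each time, 3 to 5 higher and 18 to 21 lower member probe sets, and 2 to 4 genes with probe sets in both directions. With the replicate block 4 probe sets were higher and 21 lower, and the 1 member call it changed was that of a Bcl2 probe set that then passed (-0.20, limma adjusted p = 0.025). Scaling to the poly-A controls gave 28 higher and 3 lower probe sets and 7 higher and 2 lower genes, and in the lists 16 and 1 (other family genes), 25 and 0 (execution), 22 and 1 (death receptor) and 34 and 1 (regulators); this follows from its construction, a shift of all genes. It turned the differences of 21 probe sets, to 0.54 for Bad, to 0.82, 0.67, 0.58, 0.73, 0.57 and 0.22 for Mcl1, to 0.39 for Bik, to 0.48, 0.73 and 0.82 for Bcl2l1, to 0.77, 0.64, 0.78 and 0.95 for Bcl2, to 0.53 for Bbc3, to 0.70 for Bak1, to 0.49, 0.29 and 0.15 for Bcl2l11, to 0.79 for Bid. The main Bcl2 probe set was at 0.036 under median centring and between -0.12 and 0.058 without single arrays, and another Bcl2 probe set was at -0.011 after quantile normalization. With the mean of probe sets 1 member gene was higher and Bad was at 0.043; the cause was not tested. Requiring 2-fold left 0 higher and 3 lower probe sets, 0 higher and 2 lower genes, 0 genes in both directions, and in the lists 0 and 1, 1 and 0, 2 and 1, and 1 and 1.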
